A study of Mus musculus with 12 samples.

Results

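Medullary thymic epithelium was followed through 10 genes in whole thymus RNA: Aire, Fezf2, Relb, Nfkb2, Krt5, Krt14, Trp63, Epcam, Cldn4 and Cd80. They are 10 of the 22843 genes with a symbol in the deposited mRNA table. They were taken by name as known genes of this epithelium, with earlier results of these data known. All 10 passed the filter on low counts that left 14805 genes for testing. The thymuses came from male wild type C57BL/6 mice aged 2 weeks (2W), 6 weeks (6W) and 3 months (3M), with 2 libraries at each age, and the groups carry no treatment or altered allele. The paper describes the 2 libraries of an age as biological replicates, and the labels do not say whether a library holds 1 thymus or several. The design sets growth of the thymus from 2W to 6W beside its decline from 6W to 3M. Small RNA libraries of the same 3 ages, again with 2 at each age, gave the miRNA counts.

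The medulla of the thymus is where developing T cells meet proteins of other tissues before they leave. Medullary epithelial cells transcribe genes of many organs, and AIRE and FEZF2 are the transcription regulators best known for switching these tissue-restricted genes on. Thymocytes that bind such antigens strongly are removed or become regulatory T cells. Signals of the RANK, CD40 and lymphotoxin beta receptors reach the non-canonical NF-κB proteins RelB and p100/p52 in the epithelium, and loss of RelB leaves the medulla largely without AIRE-positive cells. Epithelial cells are a small share of a thymus, so in whole tissue these genes are read against a large excess of thymocyte RNA. In such bulk samples, fewer cells of a type and less RNA per cell cannot be told apart.

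The libraries held 16355849 to 22387100 estimated counts in genes with a symbol. Spearman correlations of log2 CPM between libraries were 0.983 to 0.993 within an age and 0.968 to 0.988 between ages. CPM is the count scaled to a common library size with TMM factors, and is called the normalised count below. The defining genes of medullary epithelium were present in every library, with Aire at 6.70 to 8.69 CPM and Krt5 at 61.4 to 174 CPM. A call is a Benjamini-Hochberg adjusted p under 0.05 in edgeR's quasi-likelihood F test over all genes tested. For any gene alone, permuting 2 libraries against 2 exactly (two-sided) gives at best p = 0.333. Each test therefore rests on the fit across all genes, which shares its estimate of the spread over the 6 libraries.

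Of the 10 genes, Trp63 rose with age while no change of Aire was detected. Trp63 was the single gene of the 10 called at 6W against 2W, where 1.74% of all genes tested were called, and again at 3M against 2W, where 11% were called. At 3M against 6W, edgeR called 0 of the 10 and 0.00675% of all genes. In that comparison 1 of the 10 had an unadjusted p under 0.05, against 14.3% of all genes, and DESeq2 called 1, Trp63 in both cases. DESeq2 called 341 of the 14805 genes there. The unadjusted p was under 0.05 for 4 of the 10 genes at 6W against 2W, against 18.9% of all genes, and for 5 of the 10 at 3M against 2W, against 27.3%. With the threshold of the study (unadjusted p under 0.05 and a fold above 2), 0 of the 10 were called at 6W against 2W, 0 at 3M against 6W and 1 at 3M against 2W, where 5.36%, 2.11% and 9.35% of all genes were called. The median log2 fold change of the 10 genes was 0.47 at 6W against 2W, 0.03 at 3M against 6W and 0.44 at 3M against 2W, while that of all genes tested was -0.01, 0.02 and -0.03. From 2W to 6W, 9 of the 10 genes had libraries that did not overlap, against 57.8% of all genes. Only 2 of the 10 were without overlap at 3M against 6W, where the share of all genes was 49.2%, and 7 of 10 were so at 3M against 2W, against 51.8%.

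**Figure D1:**
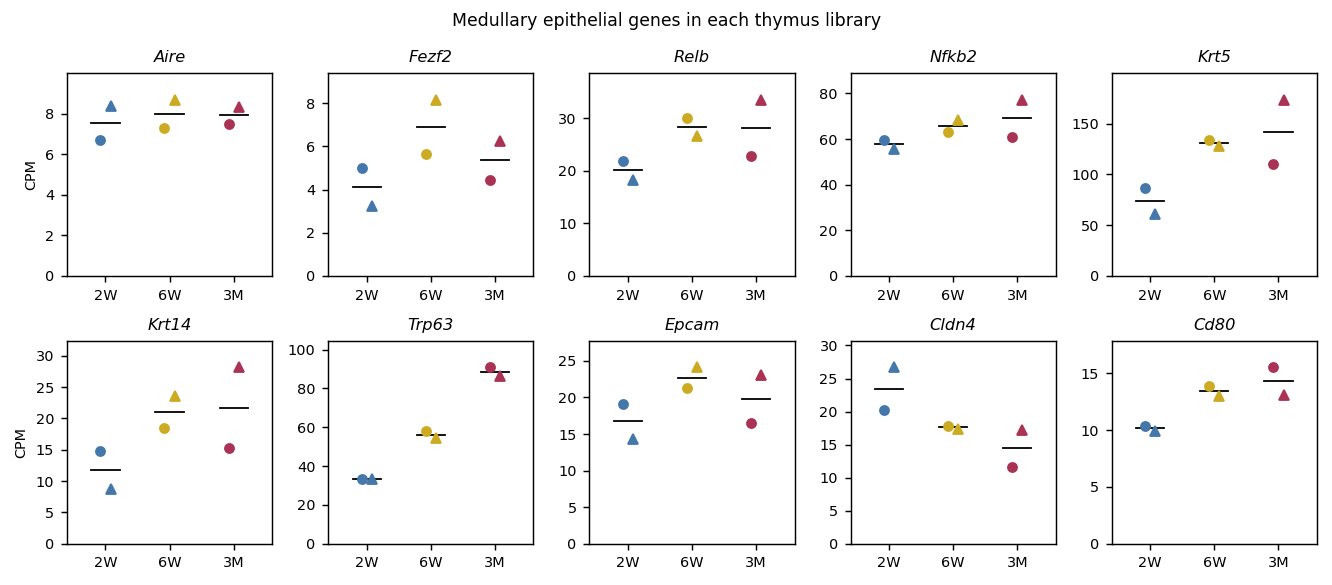
Normalised counts (CPM, vertical axis, from 0) of the 10 genes at 2W, 6W and 3M; circles are replicate 1, triangles are replicate 2 and bars are means of the 2 libraries. Aire stays between 6.70 and 8.69 CPM, Trp63 steps from 33.3 and 33.1 CPM at 2W to 90.8 and 86.5 CPM at 3M, and Cldn4 is the gene whose means go down with age.

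Aire, the autoimmune regulator that releases tissue-restricted genes in mature medullary epithelial cells, was the steadiest of the 10 genes when all transcripts were summed. Its normalised count was 6.70 and 8.40 CPM in the 2W libraries, 7.32 and 8.69 CPM in the 6W libraries and 7.52 and 8.33 CPM in the 3M libraries. The libraries of all 3 ages overlapped, and the highest value was 1.30 times the lowest. The log2 fold change was 0.08 ± 0.20 (SE) at 6W against 2W, with an adjusted p of 0.846 in edgeR's test. Its 95% interval runs from a fold of 0.760 to 1.48. At 3M against 2W the log2 fold change was 0.07 ± 0.20, with an interval from 0.752- to 1.47-fold. A change of Aire smaller than about these bounds was not detectable with 2 libraries an age. Part of the Aire count depends on how transcripts are assigned. Of its 15 transcripts in the table, 2 are assembled ones that carry 51.1% of its counts, and TCONS_00012496 alone carries 48.1%. Without assembled transcripts, the log2 fold change of Aire was 0.72 at 6W against 2W (adjusted p = 0.293) and 0.49 at 3M against 2W (adjusted p = 0.329, both by edgeR). In that setting Aire was not the steadiest at 6W against 2W, where Nfkb2 and Cd80 moved by 0.049 and 0.065.

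The promoter of Aire is shown because the gene is transcribed in few cells of the tissue and its start site has a known core element. RefSeq promoters (250 bases before the start site and 50 after, GRCm38.p6) were given for 8 of the 10 genes, with 10 promoters in all, and not for Trp63 and Relb. The stretch below holds the 60 bases upstream of the start, read 5′ to 3′ on the minus strand at chr10:78043611-78043670, with the letters TATAAA in capitals at position -29.
Aire: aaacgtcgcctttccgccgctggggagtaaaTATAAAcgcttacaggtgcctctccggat
Read on the sense strand, 8.32% of the 32851 promoters in the table hold TATAAA within the same window. Among the 10 promoters of these genes it was found in that of Aire.

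Fezf2, a zinc finger regulator that switches on a set of tissue-restricted genes apart from that of AIRE, had the lowest level of the 10 genes. It was counted at 4.99 and 3.25 CPM at 2W, at 5.67 and 8.16 CPM at 6W and at 4.45 and 6.27 CPM at 3M. Both 6W libraries lay above both 2W libraries, and the 3M libraries overlapped with both other ages. The log2 fold change was 0.75 ± 0.32 at 6W against 2W (edgeR adjusted p = 0.278), and its interval runs from 0.984- to 2.87-fold. At 3M against 6W it was -0.36 ± 0.32 (adjusted p = 0.627, edgeR). The transcript ENSMUST00000022262 carried 57.0% to 85.0% of the Fezf2 count in 5 libraries and 0% in 3M replicate 1, where ENSMUST00000224714 carried 59.6%.

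Relb and Nfkb2 encode the DNA-binding partner RelB and the precursor p100 of the non-canonical NF-κB dimer. For Relb, 21.9 and 18.3 CPM were counted at 2W, 30.1 and 26.6 CPM at 6W and 22.9 and 33.6 CPM at 3M. Both later ages lay above 2W in every library, and the 3M libraries enclosed those of 6W. The log2 fold change of Relb was 0.50 ± 0.21 at 6W against 2W (adjusted p = 0.263) and 0.49 ± 0.21 at 3M against 2W (adjusted p = 0.183, both by edgeR). Nfkb2 varied less, with 59.4 and 55.9 CPM at 2W, 63.1 and 68.5 CPM at 6W and 60.9 and 77.3 CPM at 3M. Its log2 fold change was 0.19 ± 0.14 at 6W against 2W, with an adjusted p of 0.497 in edgeR, and 0.26 ± 0.14 at 3M against 2W, with an adjusted p of 0.289. Within a library, Relb was 0.327 to 0.478 of Nfkb2 on the scale of normalised counts. Both 2W ratios, 0.369 and 0.327, lay below those of the later ages, the nearest being 0.376, and the 6W and 3M ranges overlapped.

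RelB and p52 bind κB sites, and their promoters and targets can hold such letters. The κB pattern searched, on both strands, was GGG, then 2 bases of any kind, then TTTCC. It occurs in 1.63% of the 32851 RefSeq promoters, and among the 10 genes was found in promoters of Krt14 and Nfkb2. A wider pattern of GGG and CC with 5 bases of any kind between them, which contains the first, occurs in 50.8% of promoters. The 60 bases shown end at or before the start site, with the match in capitals. Nfkb2 is read on the plus strand at chr19:46304677-46304736, with the match from position -11, and Krt14 on the minus strand at chr11:100206103-100206162, with the match from position -107 as the reverse complement of the pattern.
Nfkb2: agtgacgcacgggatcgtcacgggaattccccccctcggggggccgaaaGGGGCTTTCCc
Krt14: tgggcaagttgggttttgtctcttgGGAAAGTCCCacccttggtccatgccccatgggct
The other 2 Nfkb2 promoters overlap and share a match at the same genomic site, at position 11 after the start of the former and position -225 of the latter. These matches describe the letters and are not binding data.

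Few other genes of this pathway passed the test. The list of 25 ligands, receptors, adaptors, kinases, NF-κB subunits and inhibitors includes the RANK ligand Tnfsf11, CD40 ligand, lymphotoxin beta, their receptors and the kinase NIK (Map3k14), and all 25 were tested. At 6W against 2W edgeR called 0 of 25, with 3 at an unadjusted p under 0.05, against 18.9% of all genes. At 3M against 6W it called 0 of 25, with 2 at an unadjusted p under 0.05, against 14.3%. At 3M against 2W it called 1 gene. This was Rel, a canonical NF-κB subunit, which rose from 58.9 and 72.0 CPM at 2W to 108 and 91.5 CPM at 3M (log2 fold change 0.60 ± 0.15, edgeR adjusted p = 0.047), where 7.91% of all genes were called higher. The median log2 fold change of the list was 0.12, 0.00 and 0.08 in the 3 comparisons. RNA of this pathway also comes from lymphocytes and dendritic cells.

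Krt5 and Krt14, the keratin pair of basal epithelium that marks the medulla in thymus sections, had higher means at 6W and 3M than at 2W without passing the test. Krt5 was counted at 86.2 and 61.4 CPM at 2W, at 134 and 128 CPM at 6W and at 110 and 174 CPM at 3M. Every later library lay above both 2W libraries. The log2 fold change was 0.83 ± 0.25 at 6W against 2W (adjusted p = 0.156) and 0.95 ± 0.25 at 3M against 2W (adjusted p = 0.059, both by edgeR). Krt5 passed the threshold under several alternatives, among them DESeq2, with an adjusted p of 0.021 at 6W against 2W and 0.0028 at 3M against 2W. Krt14 was counted at 14.9 and 8.71 CPM at 2W, at 18.5 and 23.5 CPM at 6W and at 15.3 and 28.1 CPM at 3M. The lowest 3M library of Krt14 lay just above the highest 2W library. Its log2 fold change was 0.83 ± 0.36 at 6W against 2W and 0.89 ± 0.36 at 3M against 2W, with adjusted p of 0.273 and 0.169 in edgeR. Without 3M replicate 1, Krt14, Krt5 and Relb were called higher at 3M against 2W, with log2 fold changes of 1.28, 1.26 and 0.77 and edgeR adjusted p of 0.045, 0.016 and 0.035. Without 3M replicate 2, none of the 3 was called, with log2 fold changes of 0.34, 0.55 and 0.16 and edgeR adjusted p of 0.538, 0.142 and 0.601. The 2 keratins kept close company, with 5.44 to 7.28 normalised counts of Krt5 for each of Krt14 in the 6 libraries. Keratin genes share much sequence with relatives and pseudogenes, and how the authors assigned shared reads is not given in the sources used here.

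Trp63 encodes p63, the transcription factor that maintains the progenitors of stratified epithelia and of thymic epithelium, in cortex and medulla alike. It was counted at 33.3 and 33.1 CPM at 2W, at 58.1 and 54.3 CPM at 6W and at 90.8 and 86.5 CPM at 3M. The 3 ages did not overlap, and the libraries of an age differed by far less than the ages did. The gene rose 1.69-fold from 2W to 6W (log2 fold change 0.76 ± 0.11, edgeR adjusted p = 0.035). From 2W to 3M it rose 2.67-fold (1.42 ± 0.11, adjusted p = 0.0044, edgeR), with a 95% interval from 2.24- to 3.18-fold. The step from 6W to 3M was 1.58-fold (0.66 ± 0.10), with an edgeR adjusted p of 0.177 and an unadjusted p of 4.8e-04. The call at 3M against 2W was made under each of the 14 alternatives, with adjusted p up to 0.041 and log2 fold changes of 1.37 to 1.49. Among the alternatives that ended the call at 6W against 2W were annotated transcripts alone (adjusted p = 0.072) and leaving out any 2W or 6W library (adjusted p = 0.136 to 0.312, all by edgeR), while its log2 fold change stayed between 0.71 and 0.84 under all 14 alternatives.

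**Figure D2:**
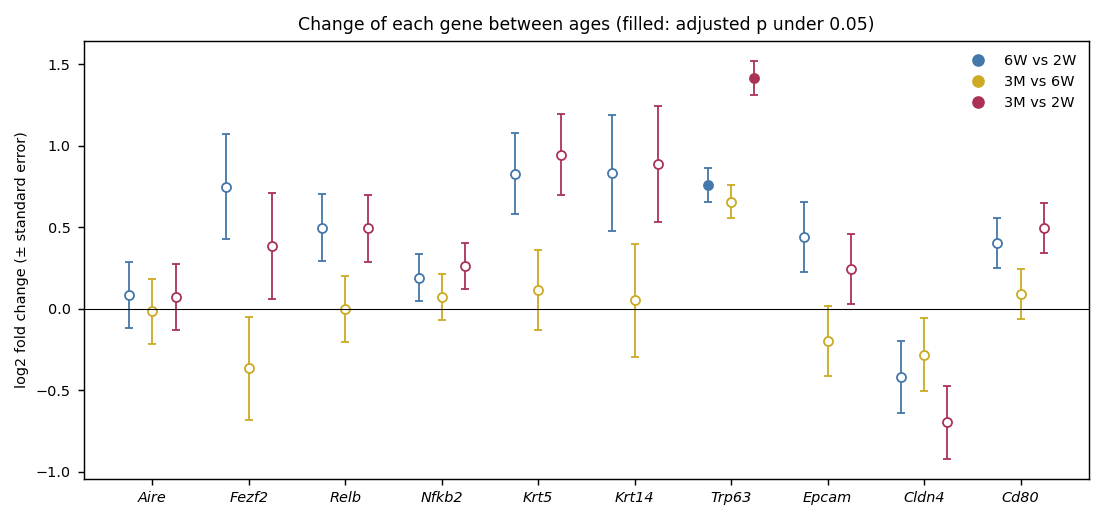
Log2 fold change (vertical axis) of each of the 10 genes for 6W vs 2W (blue), 3M vs 6W (yellow) and 3M vs 2W (red); bars are ± 1 standard error and filled points have an adjusted p under 0.05. Trp63 holds the filled points, at 0.76 and 1.42, while the 3 points of Aire lie between -0.01 and 0.08.

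Set against Aire within the same library, Trp63 went from 4.97 and 3.94 normalised counts per Aire count at 2W to 7.94 and 6.24 at 6W and 12.1 and 10.4 at 3M. Against Epcam, Trp63 stood at 1.74 and 2.32 at 2W, 2.73 and 2.25 at 6W and 5.51 and 3.76 at 3M. Both ratios were higher in each 3M library than in any library of the other ages. The Trp63 count lay wholly in annotated transcripts. ENSMUST00000040231 carried 53.9% to 87.5% and ENSMUST00000115306 carried 6.24% to 37.5% of it, with both extremes of the latter in a 2W and a 6W library. In the test of single transcripts the log2 fold changes at 3M against 2W were 1.29 for ENSMUST00000040231 and 2.24 for ENSMUST00000115306, with edgeR adjusted p of 0.181 and 0.382. That test called 0 of 35036 transcripts in each of the 3 comparisons, with 7.66%, 6.9% and 11% of them at an unadjusted p under 0.05 at 6W against 2W, 3M against 6W and 3M against 2W.

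Basal adhesion genes, the laminin, desmosome and hemidesmosome components that p63-dependent epithelia share, were taken as a list of 15. At 3M against 2W, 5 of the 15 rose and 0 fell, against 7.91% of all genes called higher, and at 6W against 2W 1 rose, against 1.47%. Pkp1, a desmosomal plakophilin, was the gene called in both. It was counted at 31.7 and 27.5 CPM at 2W, 49.0 and 54.9 CPM at 6W and 62.1 and 73.5 CPM at 3M, with log2 fold changes of 0.81 ± 0.14 (edgeR adjusted p = 0.050, just under the threshold) and 1.197 ± 0.14 (adjusted p = 0.0077) against 2W. Perp, a desmosome-associated p63 target, went from 29.46 and 35.01 CPM at 2W to 67.42 and 62.98 CPM at 3M (log2 fold change 1.02, edgeR adjusted p = 0.011). Lama3, a laminin 332 chain, rose from 46.1 and 42.2 to 74.1 and 91.0 CPM (adjusted p = 0.013 in edgeR). The list's median log2 fold change was 0.18, 0.22 and 0.48 at 6W against 2W, 3M against 6W and 3M against 2W.

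Epcam, the adhesion molecule used to sort thymic epithelium, was counted at 19.2 and 14.3 CPM at 2W, 21.3 and 24.1 CPM at 6W and 16.5 and 23.0 CPM at 3M. The 6W libraries lay above those of 2W, and the 3M libraries overlapped with both ages. Its log2 fold change was 0.44 ± 0.22 at 6W against 2W and 0.24 ± 0.22 at 3M against 2W, with edgeR adjusted p of 0.322 and 0.517. Aire stood at 0.344 to 0.588 normalised counts for each of Epcam, with the highest ratio in 2W replicate 2, and Fezf2 at 0.227 to 0.339.

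Cldn4, a tight junction claudin that marks a subset of medullary epithelium including many AIRE-positive cells, was the gene of the 10 whose difference was negative in all 3 comparisons. It was counted at 20.3 and 26.7 CPM at 2W, 17.8 and 17.3 CPM at 6W and 11.6 and 17.2 CPM at 3M. The 2W libraries lay above all later ones. The log2 fold change was -0.42 ± 0.22 at 6W against 2W (edgeR adjusted p = 0.353) and -0.70 ± 0.22 at 3M against 2W (adjusted p = 0.0996, edgeR), with an interval from 0.426- to 0.893-fold before adjustment. Without 3M replicate 2, the value at 3M against 2W was -1.05 with an edgeR adjusted p of 0.039, and without 3M replicate 1 it was -0.42 with an adjusted p of 0.225. For each Epcam count, Cldn4 was at 1.06 and 1.87 at 2W and at 0.704 to 0.838 at 6W and 3M.

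Among 12 partners of EPCAM and the claudins, edgeR called 4 higher and 0 lower at 3M against 2W, where 7.91% of all genes were called higher and 3.1% lower. Spint1, an inhibitor of the membrane protease that cleaves EPCAM, rose from 12.27 and 10.97 CPM at 2W to 21.8 and 25.9 CPM at 3M (log2 fold change 1.04, edgeR adjusted p = 0.012). Cdh1, which encodes E-cadherin, rose from 54.6 and 48.7 to 84.7 and 111 CPM (0.92, adjusted p = 0.017, edgeR). The junction genes F11r and Tjp1 rose by 0.54 and 0.49 on the log2 scale (edgeR adjusted p = 0.043 and 0.047). The list had 0 calls of edgeR at 6W against 2W, with 5 at an unadjusted p under 0.05, against 18.9% of all genes. It had 0 at 3M against 6W, with 3 at an unadjusted p under 0.05, against 14.3%.

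Cd80, the B7-1 ligand of CD28 and CTLA-4 and a mark of mature medullary epithelium, was counted at 10.4 and 9.93 CPM at 2W, 13.9 and 13.0 CPM at 6W and 15.5 and 13.1 CPM at 3M. All later libraries lay above those of 2W. The log2 fold change was 0.40 ± 0.15 at 6W against 2W (adjusted p = 0.235) and 0.49 ± 0.15 at 3M against 2W (adjusted p = 0.094, both by edgeR). Assembled transcripts carried 45.7% of its counts, and without them its log2 fold change was 0.065 at 6W against 2W (adjusted p = 0.919) and 0.22 at 3M against 2W (adjusted p = 0.640, both by edgeR). Of 7 partners and relatives of CD80, 1 was called at 3M against 2W, higher, against 7.91% of all genes. In the other comparisons edgeR called 0 of 7, with 3 at an unadjusted p under 0.05 at 6W against 2W, against 18.9%, and 2 at 3M against 6W, against 14.3%. Cd86, the related ligand B7-2, rose from 15.8 and 17.0 CPM at 2W through 26.1 and 23.7 CPM at 6W to 30.4 and 30.6 CPM at 3M (log2 fold change 0.89 ± 0.12, edgeR adjusted p = 0.010).

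Dendritic cells and B cells also make Cd80, Cd86, Relb and Nfkb2, and their markers moved over the same ages. Of 11 dendritic cell markers, 2 rose at 6W against 2W and 5 at 3M against 2W, against 1.47% and 7.91% of all genes, and none fell. Itgax, which encodes CD11c, was at 9.80 and 8.77 CPM at 2W, 26.1 and 22.5 CPM at 6W and 21.8 and 31.0 CPM at 3M, with log2 fold changes of 1.39 and 1.51 against 2W (edgeR adjusted p = 0.036 and 0.0105). Cd209a rose from 0.443 and 0.736 CPM at 2W to 4.17 and 4.02 CPM at 6W (edgeR adjusted p = 0.028). The summed level of the 11 dendritic markers was 165 to 192 CPM at 2W, 283 to 289 CPM at 6W and 244 to 305 CPM at 3M. Of 7 B cell markers, where the same shares apply, Cd22 rose in both comparisons with 2W, by 1.79 on the log2 scale each time (edgeR adjusted p = 0.023 and 0.0062), and the summed level of the list was 50.6 to 56.2 CPM at 2W, 77.4 to 88.9 CPM at 6W and 65.3 to 73.9 CPM at 3M. Their part in the values of Cd80, Relb and Nfkb2 was not tested.

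Aire acts through proteins that open and transcribe chromatin, and 20 of its partners and co-regulators were tested. In edgeR 0 of 20 were called at 6W against 2W, with 2 at an unadjusted p under 0.05, and 0 at 3M against 6W, with 3, where 18.9% and 14.3% of all genes were under it. At 3M against 2W 1 fell. Top2a, a topoisomerase of dividing cells, dropped by 0.62 on the log2 scale (edgeR adjusted p = 0.047), from 1569 and 1748 CPM at 2W to 1235 and 919 CPM at 3M, where 3.1% of all genes were called lower. The list's median log2 fold change was -0.09, 0.01 and -0.07. These are values of whole thymus, and the part that cells expressing Aire have in them was not tested.

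Of a list of 14 tissue-restricted genes reported as Aire-dependent, 11 could not be tested. Of these, Spt1 had no row under that symbol and the others were under the filter on low counts. Among the latter was Ins2, the insulin gene, with 27.0 estimated counts summed over the 6 libraries. The 3 tested were Csn2, Mup1 and S100a8, and edgeR called 0 of them in each comparison, with 1, 2 and 1 at an unadjusted p under 0.05, against 18.9%, 14.3% and 27.3% of all genes. Csn2, a milk casein, was counted at 15.9 and 12.4 CPM at 2W, 11.7 and 14.7 CPM at 6W and 8.90 and 7.57 CPM at 3M. Its 3M libraries lay below all others, with a log2 fold change of -0.78 ± 0.20 at 3M against 2W and an edgeR adjusted p of 0.059. S100a8, also a gene of neutrophils, was at 14.1 and 8.83 CPM at 2W, 34.2 and 26.8 CPM at 6W and 2.47 and 8.15 CPM at 3M. Its 6W libraries lay above all others, with a log2 fold change of 1.41 ± 0.48 at 6W against 2W (edgeR adjusted p = 0.197) and of -2.49 ± 0.50 at 3M against 6W (edgeR adjusted p = 0.206).

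Of 9 genes reported as Fezf2-dependent, 7 were tested, and edgeR called 0 in each comparison, with 1, 0 and 1 at an unadjusted p under 0.05, against the same shares of all genes. Krt10, a suprabasal keratin, was at 2.91 and 3.86 CPM at 2W, 8.48 and 7.41 CPM at 6W and 4.81 and 6.09 CPM at 3M (log2 fold change 1.23 at 6W against 2W, edgeR adjusted p = 0.068). Maoa, a monoamine oxidase gene, had a log2 fold change of -0.37 at 6W against 2W (edgeR adjusted p = 0.342). At 6W and 3M, liver genes of this list differed between the libraries of an age. Ttr, chosen after its values were seen, was at 10.2 and 9.38 CPM at 2W, at 9.31 and 1.41 CPM at 6W and at 10.3 and 0.358 CPM at 3M.

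Few other medullary genes outside the 10 passed the test. Of 15 tested, edgeR called 1 at 6W against 2W and 1 at 3M against 2W, both higher, against 1.47% and 7.91% of all genes. It called 0 at 3M against 6W, with 5 at an unadjusted p under 0.05, against 14.3% of all genes. Spib, an Ets factor of medullary epithelium and of B and plasmacytoid dendritic cells, rose from 15.7 and 14.9 CPM at 2W to 24.9 and 26.3 CPM at 6W (log2 fold change 0.74 ± 0.12, edgeR adjusted p = 0.044) and stood at 17.0 and 18.1 CPM at 3M. Tnfrsf12a, the TWEAK receptor, rose from 1.07 and 1.16 CPM at 2W to 2.89 and 5.02 CPM at 3M (1.82 ± 0.38, adjusted p = 0.030, edgeR). The list's median log2 fold change was 0.55 at 6W against 2W and -0.54 at 3M against 6W, so that 13 of 15 values were positive in the first comparison and 3 of 15 in the next. The comparisons share the 6W libraries, so that values with opposite signs are not independent. The summed level of the list was 311 to 467 CPM at 2W, 549 to 621 CPM at 6W and 404 to 534 CPM at 3M.

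Cortical epithelium, the other thymic epithelial lineage, was read from 11 markers. At 3M against 2W, 4 rose and 2 fell, against 7.91% of all genes called higher and 3.1% lower. At 6W against 2W, 1 rose and 1 fell, against 1.47% and 0.263%. Enpep, an aminopeptidase marker also known as Ly51, rose from 25.9 and 26.8 CPM at 2W to 56.3 and 47.2 CPM at 6W and 69.9 and 59.4 CPM at 3M (log2 fold changes 0.97 and 1.29 against 2W, edgeR adjusted p = 0.036 and 0.0069). Ly75, which encodes the endocytic receptor CD205, was at 257 and 278 CPM at 2W and rose to 464 and 414 CPM at 3M (edgeR adjusted p = 0.014). The chemokine gene Cxcl12 rose by 0.75 on the log2 scale at 3M against 2W (edgeR adjusted p = 0.025). The part of other cells in the values of Ly75 and Cxcl12 was not tested. Dll4, the Notch ligand that commits progenitors to the T lineage, fell from 26.6 and 25.4 CPM at 2W to 9.64 and 10.99 CPM at 6W and 15.5 and 13.0 CPM at 3M (edgeR adjusted p = 0.023 and 0.018). Foxn1, the master factor of thymic epithelium and the other gene that fell, was named after its values were seen and dropped by 0.82 on the log2 scale at 3M against 2W (edgeR adjusted p = 0.047).

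**Figure D3:**
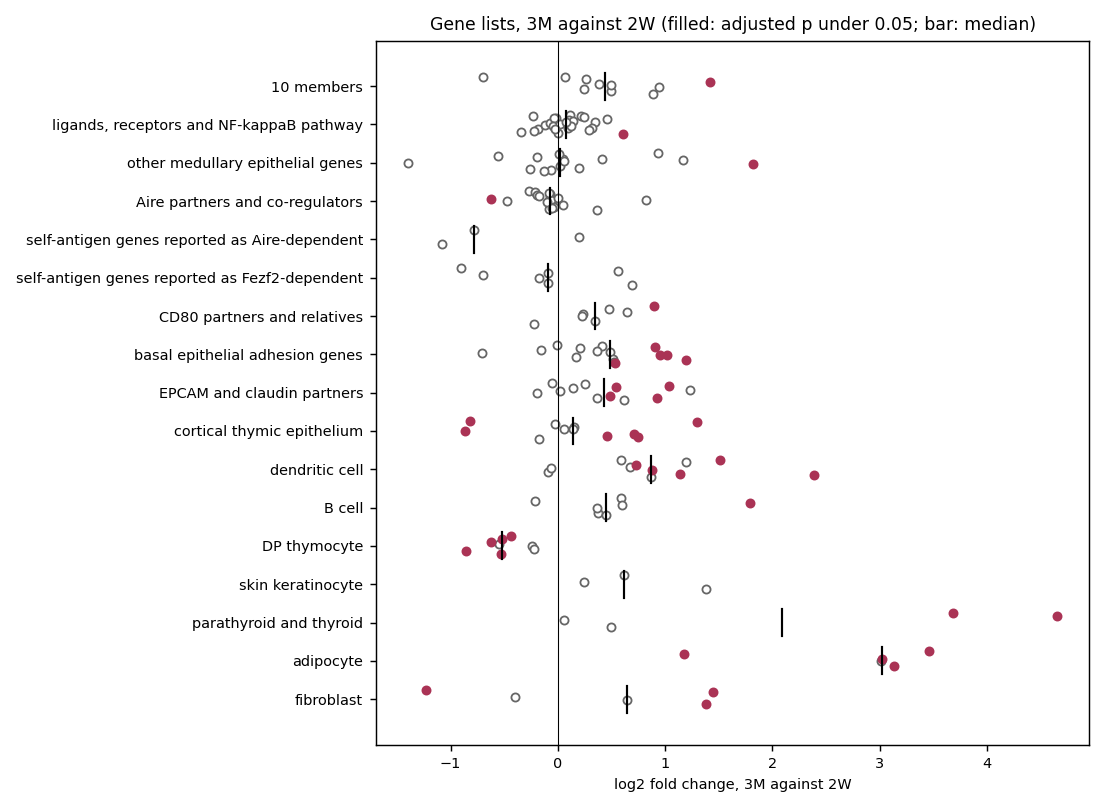
Log2 fold change at 3M vs 2W (horizontal axis) of every tested gene of each list (rows); filled points have an adjusted p under 0.05 and bars are list medians. In the row of the 10 members the filled point is Trp63 at 1.42, and the adipocyte row lies to the right of 1 throughout.

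Markers of cells other than epithelium also changed over the same ages, and their part in the values above was not tested. Of 8 markers of CD4+ CD8+ thymocytes, 5 fell at 3M against 2W, against 3.1% of all genes, among them Cd8a, Cd4 and Ptcra with drops of 0.52, 0.53 and 0.85 on the log2 scale, and the summed level of the list was 13743 to 15307 CPM at 2W, 12326 to 12382 CPM at 6W and 10656 to 10776 CPM at 3M. Of 5 adipocyte markers, Adipoq and Cidec rose at 6W against 2W, the comparison in which Trp63 was called (edgeR adjusted p = 0.041 and 0.027), against 1.47% of all genes. All but Lep rose at 3M against 2W (4 of 5, against 7.91% of all genes), and at 3M against 6W edgeR called 0 of them, with 3 at an unadjusted p under 0.05, against 14.3% of all genes. Their summed level was 32.5 to 35.4 CPM at 2W, 87.8 to 96.0 CPM at 6W and 104 to 189 CPM at 3M. Of 5 fibroblast markers, Pdgfra and Dcn rose at 3M against 2W and Col1a1 fell, against 7.91% of all genes called higher and 3.1% lower. Skin keratinocyte markers, which bear on Krt5, Krt14 and Trp63, were low, with a summed level of 1.53 to 2.15 CPM at 2W, 5.57 to 6.62 CPM at 6W and 2.17 to 4.21 CPM at 3M. Lor and Krt2 of this list were under the filter, and Krtdap rose at 6W against 2W, from 0.632 and 0.552 CPM to 2.37 and 3.09 CPM (edgeR adjusted p = 0.048). Parathyroid tissue can lie beside the thymus. Of 4 parathyroid and thyroid markers tested, 2 rose at 3M against 2W, against 7.91% of all genes. Casr, the calcium receptor gene, was at 5.09 to 6.70 CPM at 2W, 4.37 to 5.86 CPM at 6W and 5.47 to 6.81 CPM at 3M. Pth, the parathyroid hormone gene, was at 1.39 and 0.674 CPM at 2W, 3.30 and 1.99 CPM at 6W and 8.60 and 17.9 CPM at 3M (edgeR adjusted p = 0.012 at 3M against 2W), and Tshr rose as well (adjusted p = 0.037, edgeR), with values from 0 to 1.32 CPM.

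MiRNAs known from epithelia were counted in separate small RNA libraries of whole thymus, and which cells made them was not tested. The 2006 miRNAs of the table took 9181478 to 10994118 tag counts a library. The 8 followed were miR-205, the 5 members of the miR-200 family, miR-203 and miR-449a. miR-205 and the miR-200 family are known from epithelia, where the family holds back the repressors ZEB1 and ZEB2, and miR-203 is known to target p63 in skin. The sequences, from RefSeq on GRCm38.p6 and equal to the tags in the deposited table, are printed 5′ to 3′ with the seed (bases 2 to 8) in capitals, since the seed groups the family. miR-200a and miR-141 share one seed, and miR-200b, miR-200c and miR-429 share another that differs from it in a single base.
mmu-miR-205-5p: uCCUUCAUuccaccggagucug
mmu-miR-200a-3p: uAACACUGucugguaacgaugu
mmu-miR-141-3p: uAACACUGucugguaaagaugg
mmu-miR-200b-3p: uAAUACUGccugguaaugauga
mmu-miR-200c-3p: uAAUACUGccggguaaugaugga
mmu-miR-429-3p: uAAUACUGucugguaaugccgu
mmu-miR-203-3p: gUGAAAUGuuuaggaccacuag
mmu-miR-449a-5p: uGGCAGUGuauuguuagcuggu
miR-200a, miR-200b and miR-429 lie together on chromosome 4 and miR-200c and miR-141 on chromosome 6, so that the 5 come from 2 loci.

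All 8 miRNAs were called at 3M against 2W, 7 higher and 1 lower, where edgeR called 13.5% of the 822 miRNAs tested higher and 16.4% lower. At 6W against 2W 3 were called, all higher, against 2.31% of all miRNAs, and at 3M against 6W 1 was called, also higher, against 0.487%. The threshold of the study called 1, 1 and 2 of the 8 at 6W against 2W, 3M against 6W and 3M against 2W, and 15%, 7.42% and 26.3% of all miRNAs. mmu-miR-205-5p had the largest rise of the 8. It was counted at 1211 and 1070 CPM at 2W, 2467 and 2098 CPM at 6W and 5632 and 4961 CPM at 3M, without overlap between ages. Its log2 fold change was 1.001 ± 0.20 at 6W against 2W, 1.21 ± 0.20 at 3M against 6W and 2.22 ± 0.20 at 3M against 2W, with edgeR adjusted p of 0.016, 0.019 and 1.7e-04. The calls at 6W against 2W and at 3M against 6W were lost without either 6W library, with edgeR adjusted p of 0.12 to 0.296, and the former also without 2W replicate 2 (adjusted p = 0.065).

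**Figure D4:**
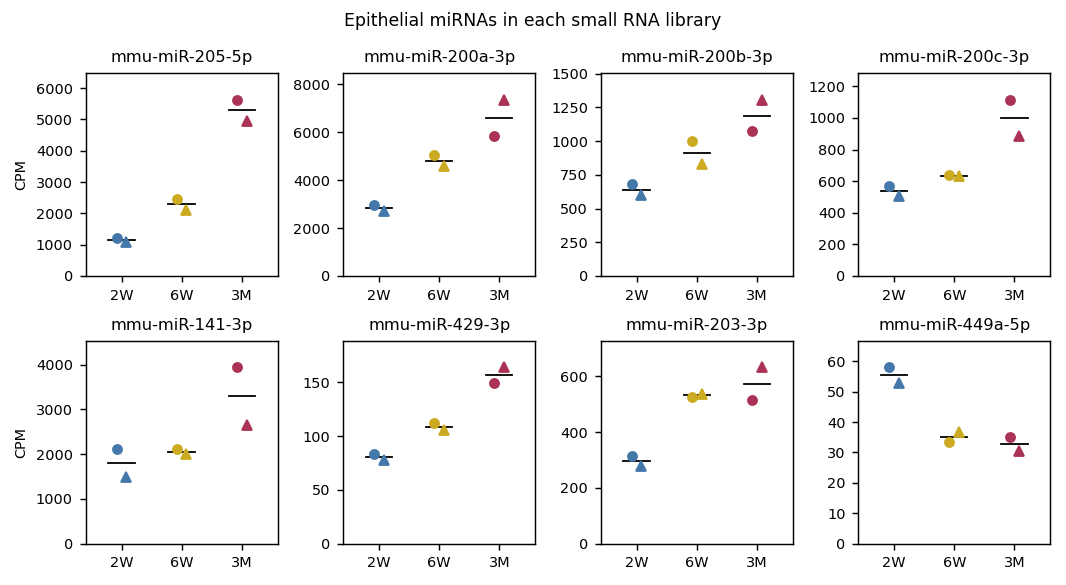
Normalised counts (CPM, vertical axis, from 0) of 8 epithelial miRNAs in the small RNA libraries at 2W, 6W and 3M; circles are replicate 1, triangles are replicate 2 and bars are means. miR-205-5p goes from 1211 and 1070 CPM at 2W to 5632 and 4961 CPM at 3M, and miR-449a-5p is the one that is lower at the later ages.

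In the miR-200 family, mmu-miR-200a-3p rose from 2974 and 2692 CPM at 2W to 5053 and 4575 CPM at 6W and 5858 and 7360 CPM at 3M (log2 fold changes 0.76 and 1.22 against 2W, edgeR adjusted p = 0.041 and 0.0025). Its seed mate mmu-miR-141-3p was at 2123 and 1482 CPM at 2W, 2108 and 2001 CPM at 6W and 3934 and 2653 CPM at 3M, and was called at 3M against 2W (0.87, adjusted p = 0.026, edgeR). mmu-miR-200b-3p, mmu-miR-200c-3p and mmu-miR-429-3p rose 1.86-, 1.86- and 1.94-fold at 3M against 2W (edgeR adjusted p = 0.011, 0.010 and 0.0078). The 3 ages did not overlap for miR-200a, miR-200b, miR-200c and miR-429, while the 2W and 6W libraries of miR-141 overlapped. mmu-miR-203-3p was at 315 and 277 CPM at 2W, 528 and 535 CPM at 6W and 515 and 632 CPM at 3M, so that its rise lay between 2W and 6W (log2 fold change 0.84, edgeR adjusted p = 0.034). mmu-miR-449a-5p, a miRNA of multiciliated epithelium, fell from 57.9 and 52.7 CPM at 2W to 35.2 and 30.4 CPM at 3M (log2 fold change -0.76, edgeR adjusted p = 0.023). This call was lost under 6 of 11 alternatives, with adjusted p up to 0.163, and that of miR-141 under 4 of 11, with log2 fold changes of 0.55 to 1.25 and adjusted p up to 0.165. The call of miR-200b was lost without 2W replicate 2 (edgeR adjusted p = 0.051) and that of miR-200c without 3M replicate 1 (edgeR adjusted p = 0.059). At 6W against 2W, none of the 8 was called without 2W replicate 2 or without either 6W library.

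Compared per length, the order of the 10 genes was set by the deposited FPKM, fragments per transcript length and library size. Mean FPKM over the 6 libraries was 49.1 for Krt5, 19.2 for Nfkb2, 12.7 for Trp63, 10.9 for Relb, 10.5 for Epcam, 9.98 for Krt14, 9.39 for Cldn4, 5.23 for Cd80, 3.19 for Aire and 2.27 for Fezf2. Krt5, at 24.96 to 75.48 FPKM, stood above Nfkb2, at 16.3 to 23.7 FPKM, in every library. From Nfkb2 down to Cd80 each gene overlapped with the next, with Trp63 at 6.76 to 18.7 FPKM and Krt14 at 4.59 to 15.8 FPKM. Cd80, at 3.77 to 6.47 FPKM, did not overlap with Aire, at 2.58 to 3.6 FPKM, and Aire overlapped with Fezf2, at 1.31 to 3.44 FPKM.

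The split of counts between transcripts changed from library to library for the genes with several. Relb is the clearest case. ENSMUST00000098754 carried 3.61% and 1.74% of its counts at 2W, 76.2% and 0.171% at 6W and 67.0% and 59.97% at 3M, while ENSMUST00000094762 carried 66.0% in 6W replicate 2 and 0% in 6W replicate 1 and in both 3M libraries. The 2 libraries of 6W thus assigned most of Relb to different transcripts at nearly the same gene sum. With annotated transcripts alone, the log2 fold change of Relb was 1.204 at 6W against 2W (edgeR adjusted p = 0.086), and it was called at 3M against 2W (0.99, edgeR adjusted p = 0.046). For Aire, ENSMUST00000130972 carried 0% in both 2W libraries and 6.45% to 16.03% in the later ones, and ENSMUST00000128241 carried 5.01% to 40.1%. In Nfkb2 the share of ENSMUST00000073116 was 58.5% to 76.7%, and that of the assembled TCONS_00059966 was 1.52% and 3.31% at 2W and 8.14% to 12.9% later. Cd80 was split between ENSMUST00000099816 with 42.2% to 54.1% and the assembled TCONS_00045096 with 25.1% to 50.6%. Krt5, Krt14 and Cldn4 have 1 transcript each in the table, and 99.3% of the Epcam count lay in ENSMUST00000234623.

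**Figure D5:**
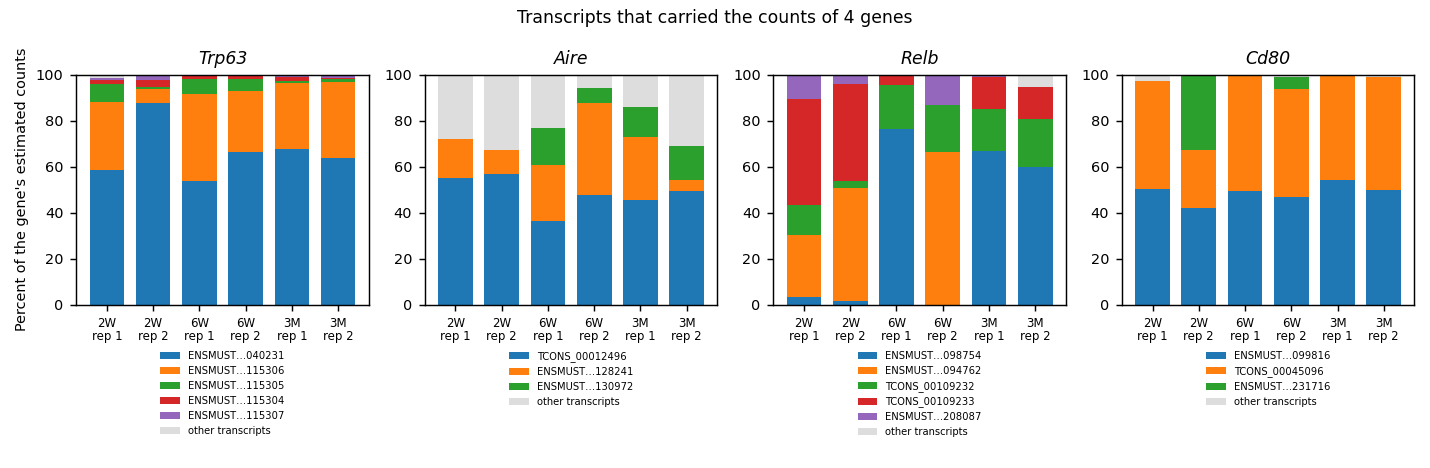
Percent of the estimated counts of Trp63, Aire, Relb and Cd80 (vertical axis) carried by each transcript in the 6 libraries; colours are transcripts with a mean of at least 10 counts and grey is the rest. The Relb bars of the 2 libraries of 6W hold different main transcripts (76.2% and 66.0%).

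At 2W and at 3M, most of the 10 genes were higher in the same library. At 3M, 8 of 10 were higher in replicate 2, with Trp63 and Cd80 as the exceptions, against 47.3% of all genes, and the median log2 difference between the replicates was 0.46 for the 10 genes and -0.02 for all genes tested. At 2W, 8 of 10 were higher in replicate 1, with Aire and Cldn4 as the exceptions, while 49.3% of all genes were higher in replicate 2, and the median difference of replicate 2 from replicate 1 was -0.17. At 6W it was 5 of 10 in each direction, with 46.5% of all genes higher in replicate 2. The 3M library with more Krt5, Krt14 and Relb also had more Pth (17.9 against 8.60 CPM) and less Adipoq (23.2 against 51.2 CPM), and the part of these in the difference was not tested.

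As a description over 6 libraries, the genes whose log2 CPM followed that of Aire most closely were Arap3, Tfap4 and Rasd2, with Pearson correlations of 0.956, 0.918 and 0.911 among the 13470 genes with a mean of at least 1 CPM. For Fezf2 they were Rsu1, Cltb and Apcdd1, with 0.993, 0.992 and 0.991. Only 4 genes exceeded 0.9 for Aire, whose values varied little, against 221 for Fezf2. The 6 points share their libraries and scaling.

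A single circRNA of the 6300 in the table came from the 10 genes. It is spliced from Aire, is 230 bases long and had 2 junction counts in 6W replicate 1 and 0 in the other 5 libraries, each of which allows up to 3 counts. No difference between ages was detectable at this depth.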

How the data were processed

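The mRNA table was made from ribosomal RNA-depleted, strand-specific RNA of whole thymus, and the miRNA table from small RNA of 18 to 30 bases. The authors deposited estimated counts and FPKM per transcript for mRNAs, and whole counts per miRNA and per circRNA junction. The submitters' processing notes list Bowtie 0.12.2 and mm8 without their role, and the program behind the estimated counts is not given in the sources used here. No molecular identifiers are described, so limits from counts cover counting error only.

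Estimated counts of all transcripts of a symbol were added up and rounded, with 665 symbols merged whose spellings differ in case. The 372 transcripts without a symbol (0.894% of counts) were left out. Genes and miRNAs were filtered with filterByExpr by age and tested in R 4.3.3 with edgeR 4.0.16 (TMM, quasi-likelihood F test, age as the only term, all 6 libraries in 1 fit), with p-values adjusted by the Benjamini-Hochberg method over 14805 genes, 822 miRNAs or 35036 transcripts. Standard errors come from the log2 fold change and the F statistic, and 95% intervals from these and the test's degrees of freedom. The scripts were tested on simulated data. FPKM served to order genes and, as log2(FPKM + 0.1), for limma 3.58.1. Other alternatives were DESeq2 1.42.0, total counts as scaling, no filter, 4 libraries alone, a replicate term, each library left out, case kept apart, annotated transcripts alone and the study threshold (unadjusted p under 0.05, absolute log2 fold change over 1).

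The members and all lists were chosen with earlier results of these data known. Named are all 10 members, up to 4 called genes for each list and comparison (otherwise the 2 with the smallest p), transcripts with a mean of at least 10 counts, all 8 miRNAs, and the 3 genes most like Aire and Fezf2. Some genes that this rule names are not reported here. The lncRNA table was not used, since its rows carry no symbol.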

Additional observations from a re-analysis of the deposited data

How the results depend on the processing

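Of the 10 genes, DESeq2 called 2 at 6W against 2W, 1 at 3M against 6W and 2 at 3M against 2W, in place of 1, 0 and 1. Of all 14805 genes it called 888, 341 and 2200, in place of 257, 1 and 1630. At 6W against 2W the fit of 4 libraries called 2, with 662 of 14437 genes called. Annotated transcripts alone called 0, with 4 of 14174 genes called, and the study threshold 0, with 793 of 14805. At 3M against 2W total counts called 2, no filter 2 and annotated transcripts alone 2. Over all genes these settings called 1787 of 14805, 1840 of 19335 and 922 of 14174. Fits that left out a library are given with the genes above. Of the 8 miRNAs, the study threshold called 1 at 6W against 2W and 2 at 3M against 2W in place of 3 and 8. It called 15% and 26.3% of all miRNAs there. Calls lost when a library was left out are given with the miRNAs above. The causes were not tested. A term for the replicate number called 0 of the 10 genes (Trp63 edgeR adjusted p = 0.101) and 1 of the 8 miRNAs at 6W against 2W. It changed no other count of these genes and miRNAs by over 1.5 times. Over all features it called 5 of 14805 genes and 49 of 822 miRNAs at 6W against 2W, in place of 257 and 71. The labels do not say whether the numbers pair the libraries. Deviations of same-numbered libraries correlated at -0.10, 0.36 and -0.27 for genes and 0.26, -0.07 and -0.18 for miRNAs, which does not settle it.

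Directions changed for small values that were called in neither setting. Leaving out a library gave log2 fold changes of -0.069 to 0.28 for Aire at 6W against 2W, -0.14 to 0.11 at 3M against 6W and -0.084 to 0.25 at 3M against 2W. At 3M against 6W the same ranges were -0.36 to 0.25 for Relb, -0.16 to 0.24 for Nfkb2, -0.30 to 0.41 for Krt5, -0.51 to 0.43 for Krt14, -0.51 to 0.029 for Epcam, -0.025 to 0.15 for Cd80 and -0.087 to 0.25 for miR-203-3p. They were -0.054 to 0.49 for Epcam at 3M against 2W and -0.049 to 0.58 for miR-141-3p at 6W against 2W. Relb stood at 0.0054 with total counts and Krt14 at -0.020 in limma at 3M against 6W. Over all single genes and miRNAs, 620 values kept direction and side of the threshold, 32 lost and 13 gained a call and 19 changed sign. A fit without a library assumes that the lone library of an age varies like the others. Calls over all genes ranged from 0 to 888 at 6W against 2W, against 257 as reported. With 2 libraries an age, changes within the interval of Aire are not resolved.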

Other observations

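Sfn, the 14-3-3 sigma gene of stratified epithelium, was chosen after its values were seen. It was counted at 6.95 and 0.123 CPM at 2W, 6.69 and 9.18 CPM at 6W and 0.0601 and 8.82 CPM at 3M, so that 1 library of 2W and 1 of 3M were near 0 while Trp63, Krt5 and Krt14 were counted in both.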
